A study of Mus musculus with 14 samples.

Results

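The genes described here keep the DNA of a dividing cell intact: 32 genes of DNA repair, of the damage checkpoint and of the replication fork, chosen by gene symbol from the 54532 lines of the count table. They fall into 7 classes by role, homologous recombination (5 genes), the Fanconi anaemia pathway (3), mismatch repair (3), base excision and single-strand break repair (5), end joining (4), checkpoint kinases (4) and the replication fork (8). All 32 had enough counts to be tested in every comparison, so none dropped out through the filter on low counts. They were chosen with earlier results of these data known, so their counts of calls beside those of all genes are descriptive.

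The classes differ in the task they serve. Homologous recombination rebuilds a broken strand from the sister chromatid and so works in cells that have copied their DNA, whereas end joining rejoins broken ends directly at any stage of the cell cycle. The Fanconi anaemia proteins open crosslinks between the strands, mismatch repair corrects copying errors behind the fork, and base excision repair removes damaged or wrong bases such as uracil. Atm and Atr are the kinases that sense breaks and stalled forks, and Chek2 and Chek1 carry their signals. Many genes of the fork and of homologous recombination are transcribed mainly as cells enter the phase of DNA synthesis, under E2F transcription factors, and long-term haematopoietic stem cells are known for seldom dividing.

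Bulk RNA-seq covered 14 samples of bone marrow cells from C57BL/6 mice, sorted into 2 populations: long-term stem cells (LT-HSC) and, further along the myeloid path, progenitors of granulocytes and monocytes (GMP). The AML1-ETO mice have the labelled genotype Runx1-Runx1t1, which stands for the murine fusion gene of the t(8;21) translocation of acute myeloid leukaemia, and the control mice are labelled WT. There were 3 AML1-ETO and 4 control libraries for either population. All samples, controls included, are labelled as given Poly[I:C] into the peritoneum, 5 mg/kg a dose and 4 doses on alternate days. Poly[I:C] is an interferon inducer, and the fusion was switched on through Mx1-Cre, a recombinase whose promoter responds to interferon in many tissues besides blood, so the fusion is not restricted to the sorted cells. The labels give neither the sort markers, the age of the mice nor the mouse each library came from. The p-values therefore rest on the spread among libraries, which may be technical.

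The libraries held 13210952 to 19403864 counts. Runx1t1, the partner gene carried by the fusion, had levels of 85.6, 164 and 125 CPM in AML1-ETO LT-HSC against 3.97, 0.0, 18.2 and 11.2 CPM in control LT-HSC, and 26.0, 26.3 and 45.7 CPM in AML1-ETO GMP against 1.69 to 2.73 CPM in control GMP. CPM are counts scaled for library size with TMM factors. The 11 LT-HSC markers summed to 413 to 1452 CPM in the LT-HSC libraries and 42.3 to 333 CPM in the GMP libraries, and the 8 GMP markers to 69.6 to 1529 and 21170 to 35360 CPM. Some libraries stood apart. Control LT-HSC replicate 2 held 77320 CPM of the 11 B and plasma cell markers, against 13160 to 17510 CPM in the other 3 control LT-HSC libraries. Control LT-HSC replicate 3 had the lowest sum of LT-HSC markers of its group (413 CPM) and the highest value of its group for 22 of the 32 genes. AML1-ETO GMP replicate 1 held 3491 CPM of the 9 neutrophil markers, against 606 and 683 CPM in the other 2.

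The promoters are shown because many of these genes moved together and E2F sites near the start are a known shared feature of such genes. RefSeq promoter windows (GRCm38.p6, the same coordinates as mm10) of 250 bases before and 50 after a start were matched for 28 of the 32 genes. Exo1, Pole, Fancd2 and Prkdc have no window in the table. The E2F-type words TTTCCCGC, TTTCGCGC, TTTGCCGC and TTTGGCGC were searched on both strands. Of the 28 genes, 7 held a match (25.0%), Brca2, Chek2, Hells, Lig1, Msh6, Pold1 and Xrcc6, which is 7 of their 33 windows (21.2%), against 744 of all 32851 windows (2.265%). In the 250 bases before the start alone, 4 of the 28 genes held a match, in 12.1% of their 33 windows, against 1.86% of all windows. A second word, TTTGAA, is the core of the CHR element of genes of late division. It was found for 1 gene, Fen1, in 3.03% of the 33 windows, against 17.9% of all windows. A match describes the letters and is not a shown binding site.

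The 250 bases before the start are printed for the 4 genes with the smallest adjusted p in LT-HSC that the table holds, with an E2F-type match in capitals. The windows are chr19:38930740-38930989 for Hells, chr17:87974800-87975049 for Msh6, chr7:13276925-13277174 for Lig1 (the most upstream of its 3 listed starts) and chr5:114130185-114130434 for Ung, all on the plus strand and written 5′ to 3′.
Hells: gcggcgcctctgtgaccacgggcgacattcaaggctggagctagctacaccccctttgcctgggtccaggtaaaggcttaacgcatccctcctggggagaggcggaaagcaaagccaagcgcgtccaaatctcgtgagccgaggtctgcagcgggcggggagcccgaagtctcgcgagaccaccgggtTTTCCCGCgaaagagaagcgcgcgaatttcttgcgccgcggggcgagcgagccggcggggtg
Msh6: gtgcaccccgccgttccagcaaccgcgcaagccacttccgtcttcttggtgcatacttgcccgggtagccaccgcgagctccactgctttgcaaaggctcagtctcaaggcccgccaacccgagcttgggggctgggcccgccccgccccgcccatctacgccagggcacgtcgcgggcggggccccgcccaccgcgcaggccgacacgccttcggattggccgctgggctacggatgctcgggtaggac
Lig1: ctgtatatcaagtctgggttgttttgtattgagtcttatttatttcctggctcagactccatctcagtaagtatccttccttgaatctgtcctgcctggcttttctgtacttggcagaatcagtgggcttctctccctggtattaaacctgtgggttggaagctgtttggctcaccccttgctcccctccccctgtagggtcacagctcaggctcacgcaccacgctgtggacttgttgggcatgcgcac
Ung: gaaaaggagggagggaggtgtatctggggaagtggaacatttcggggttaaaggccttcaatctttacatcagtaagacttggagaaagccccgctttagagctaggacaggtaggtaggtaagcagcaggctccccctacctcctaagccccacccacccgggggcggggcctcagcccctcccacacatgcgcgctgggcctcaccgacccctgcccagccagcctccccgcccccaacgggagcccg
Of these 4 stretches only that of Hells holds a match, which begins 62 bases before the start. For Msh6 the match lies after the start, at base 16. For Lig1 it lies at base 27 after another listed start, downstream of the one whose window is printed. Ung has none in its window.

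The other matches are given as 30 bases on the strand of the gene, with the word in capitals, so that their letters and places can be compared. They lie at chr5:150522442-150522471 (Brca2), chr5:110839820-110839849 (Chek2), chr15:82016312-82016341 (Xrcc6), chr17:87975054-87975083 (Msh6), chr7:13278841-13278870 (Lig1) and chr7:44548766-44548795 (Pold1, minus strand).
Brca2: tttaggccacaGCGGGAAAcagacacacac
Chek2: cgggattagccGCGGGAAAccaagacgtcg
Xrcc6: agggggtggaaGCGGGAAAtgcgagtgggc
Msh6: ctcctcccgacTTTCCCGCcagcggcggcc
Lig1: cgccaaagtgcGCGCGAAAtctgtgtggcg
Pold1: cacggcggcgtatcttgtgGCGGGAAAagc
The words of Brca2, Chek2 and Xrcc6 begin 168, 152 and 46 bases before the start, and that of Pold1 at base 40 after it. Of the 7 genes with a match, Hells, Lig1, Msh6 and Pold1 were lower in AML1-ETO LT-HSC, while Brca2, Chek2 and Xrcc6 were not called there, with log2 fold changes of −1.40, 0.73 and 0.38. Rad51ap1, Fanca, Ung, Xrcc5 and Chek1 were also lower there, with no match in their windows. Exo1 and Pole, lower as well, have no window. A link between the words and the falls was not tested.

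In LT-HSC, AML1-ETO was compared with control to ask what the fusion changes in the stem cell. The genes called lower were Pole, Hells, Lig1 and Pold1 of the fork, Exo1 and Msh6 of mismatch repair, Rad51ap1, Fanca, Ung, Xrcc5 and the checkpoint kinase gene Chek1, with falls from 2-fold (Pold1) to 8.31-fold (Exo1). The other 21, among them Brca1, Brca2, Pcna, Rpa1, Rpa2, Atm and Atr, were not called. Of the 32 genes, 11 were lower and none higher at an adjusted p under 0.05 (edgeR's quasi-likelihood F test with Benjamini-Hochberg adjustment over 14589 genes), where 4.69% of all genes tested were lower and 7.59% higher. At an unadjusted p under 0.05, 18 were lower and 1, Chek2, higher, and DESeq2 called 15 lower and 0 higher. Of all 14589 genes, 1737 were lower and 2024 higher at an unadjusted p under 0.05, and DESeq2 called 1483 lower and 1322 higher. All 3 AML1-ETO values lay below all 4 control values for 18 of the 32 genes (13.0% of all genes) and above them for 0 (15.5% of all genes). The median log2 fold change of the 32 genes was −1.20, against 0.03 for all genes. Upper-quartile scaling moved the median of all genes by −0.13. The members' median lay 1.23 below that of all genes under each of the 4 scalings and tools run. Scaling shifts all genes nearly alike, so this gap is no check of it. The share of higher genes among all called genes was 61.8%, against 51.7% with upper-quartile factors and 47.1% with DESeq2. In bulk samples, fewer cells of a type and less RNA per cell cannot be told apart.

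**Figure D1:**
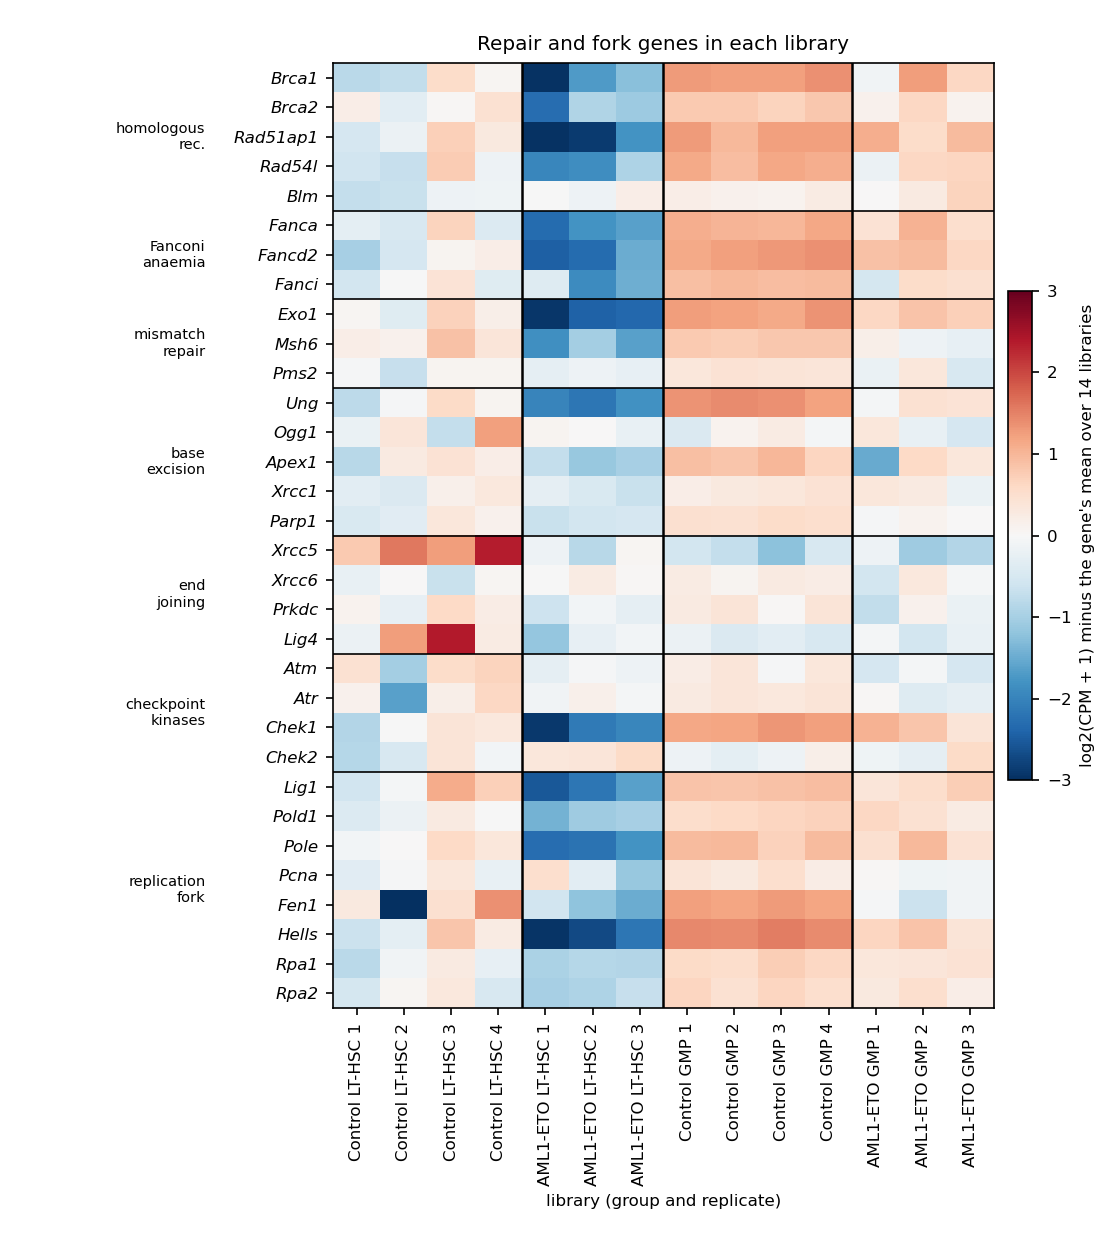
Level of the 32 genes (rows, by class) in the 14 libraries (columns, by group and replicate), as log2(CPM + 1) minus the mean of the gene over the 14 libraries, with blue lower and red higher. The 3 AML1-ETO LT-HSC columns are blue for most recombination, Fanconi, mismatch and fork genes, while Blm, Xrcc6, Atr and Chek2 are near white or red there, and Xrcc5 and Lig4 are highest in control LT-HSC.

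The replication fork held 4 of the 11 calls and was lower throughout in sign, with a median log2 fold change of −1.32 over its 8 genes. Pole (chromosome 5, 110286306 to 110337474 on mm10, as for all gene positions here), the catalytic subunit of the leading-strand polymerase epsilon, had values of 12.8, 13.5 and 18.4 CPM in AML1-ETO LT-HSC and 62.7, 66.6, 102 and 85.1 CPM in control LT-HSC. Every AML1-ETO value was far under the lowest control value, and Pole fell by 2.31 ± 0.27 on the log2 scale (SE, adjusted p = 0.00236). Hells (chromosome 19, 38930915 to 38971051), a chromatin remodeller needed for DNA methylation behind the fork, stood at 7.76, 9.37 and 14 CPM against 42.1, 54.1, 120 and 79.6 CPM. Its groups were also apart, with control replicate 3 the highest, and it fell by 2.73 ± 0.42 (adjusted p = 0.00647). Lig1 (chromosome 7, 13277283 to 13311433), the ligase that seals Okazaki fragments, stood at 24.1, 31.7 and 45.9 CPM against 97.0, 138, 314 and 239 CPM. The control values spread widely but stayed above every AML1-ETO value, and Lig1 fell by 2.44 ± 0.43 (adjusted p = 0.0102). Pold1 (chromosome 7, 44532746 to 44548849), the catalytic subunit of the lagging-strand polymerase delta, stood at 72.5, 93.1 and 98.2 CPM against 148, 172, 238 and 195 CPM. It showed the smallest of the 11 falls, 1.0 ± 0.21 (adjusted p = 0.0184).

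The single-strand binding proteins of the fork lay lower without passing the test. Rpa1 stood at 79.3, 83.5 and 82.2 CPM against 87.1, 142, 184 and 129 CPM (log2 fold change −0.62 ± 0.24, adjusted p = 0.134). Rpa2 stood at 37.7, 40.0 and 46.7 CPM against 52.5, 79.7, 95.5 and 54.7 CPM (log2 fold change −0.67 ± 0.26, adjusted p = 0.138). In both genes the groups did not overlap, though the lowest control value was close. The CPM were scaled over all 14 samples and the fold changes over the LT-HSC samples alone. A gap as narrow as that of Rpa1 can depend on the scaling. Pcna, the sliding clamp, stood at 480, 273 and 153 CPM against 267, 333, 427 and 290 CPM, with AML1-ETO replicate 1 above all controls and replicate 3 below them (log2 fold change −0.01 ± 0.36, adjusted p = 0.992). Reads of Pcna may be shared with its named pseudogenes Pcna-ps1 and Pcna-ps2. Fen1, the flap nuclease of Okazaki fragments, stood at 4.36, 2.46 and 1.83 CPM against 8.81, 0.0, 10.2 and 19.6 CPM, and control replicate 2 had no count (adjusted p = 0.591). Of the exon bases of Fen1, 84.2% are shared with the opposite-strand genes Tmem258 and Gm10143, and whether reads were counted by strand is not stated, so its values are uncertain.

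**Figure D2:**
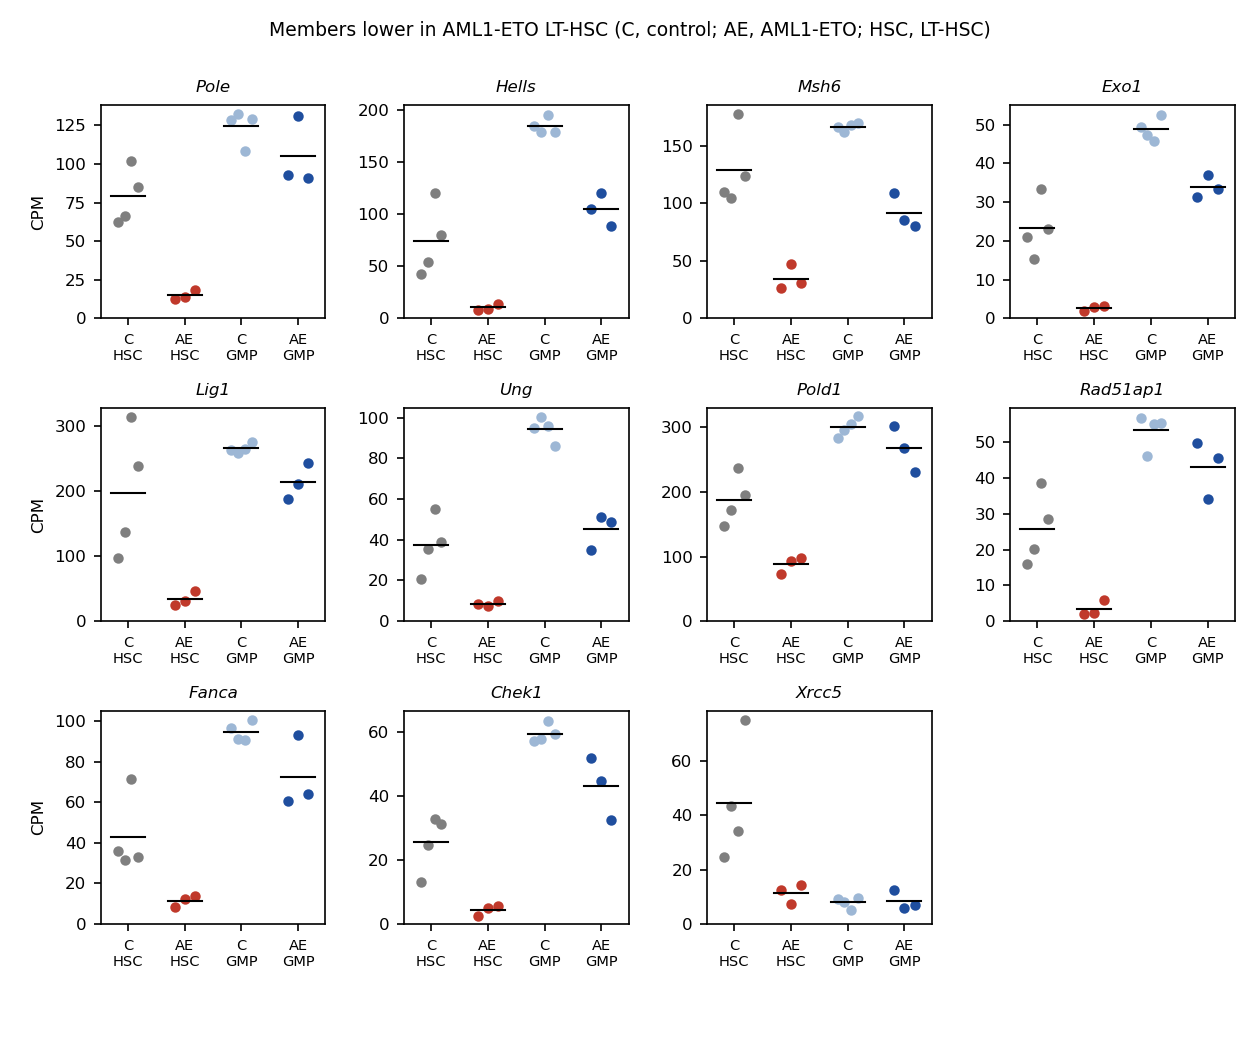
CPM of the 11 genes that were lower in AML1-ETO LT-HSC, 1 panel a gene, on linear axes from 0, with points for libraries (3 AML1-ETO or 4 control in a group) and lines for group means. In every panel the AML1-ETO LT-HSC points lie below all control LT-HSC points, and Xrcc5 alone is about as low in GMP as in AML1-ETO LT-HSC.

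Mismatch repair was lower in 2 of its 3 genes. Exo1 (chromosome 1, 175880581 to 175913489), the exonuclease that removes the strand with the error and also trims breaks, had values of 1.79, 2.92 and 3.12 CPM in AML1-ETO LT-HSC against 21.1, 15.4, 33.3 and 23.0 CPM in control LT-HSC. Every AML1-ETO value was far under every control value, and Exo1 had the largest fall of the 32 genes, 3.05 ± 0.53 on the log2 scale (adjusted p = 0.00976). Msh6 (chromosome 17, 87975062 to 87990892), which recognises single mismatched bases, stood at 26.0, 46.9 and 30.4 CPM against 109, 105, 178 and 124 CPM. It fell by 1.81 ± 0.29 (adjusted p = 0.00728). Pms2, the nuclease subunit that nicks the new strand, was close to level at 23.8, 26.0 and 24.0 CPM against 28.1, 17.3, 30.7 and 30.3 CPM (log2 fold change −0.02 ± 0.31, adjusted p = 0.987).

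In homologous recombination, 1 of 5 genes was called and 4 of 5 had no overlap between the groups. Rad51ap1 (chromosome 6, 126923050 to 126939587), which acts in strand pairing, stood at 2.09, 2.30 and 5.99 CPM against 15.99, 20.2, 38.5 and 28.6 CPM. All AML1-ETO values were low, and Rad51ap1 fell by 2.80 ± 0.60 (adjusted p = 0.0207). Brca1, which starts resection and recruits the loading complex, stood at 3.23, 9.29 and 12.8 CPM against 17.9, 18.8, 47.6 and 33.9 CPM (−1.71 ± 0.58, adjusted p = 0.0976). Brca2, which acts after resection of the break, stood at 7.76, 21.9 and 19.1 CPM against 47.9, 33.6, 43.2 and 57.5 CPM (−1.40 ± 0.40, adjusted p = 0.0547). The values of both were apart by group but wide among replicates, and neither passed the test. Rad54l, the motor protein of strand exchange, stood at 7.71 to 16.7 CPM against 19.98 to 56.7 CPM (adjusted p = 0.0998), and 15.4% of its exon bases are shared with the opposite-strand gene Lrrc41. Blm, the helicase that dissolves joined chromatids, differed from the rest of its class in sign at 67.1, 61.6 and 78.6 CPM against 41.1, 42.4, 61.0 and 62.3 CPM (0.52 ± 0.23, adjusted p = 0.198), with overlapping groups.

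The Fanconi genes followed a similar course. Fanca (chromosome 8, 123268300 to 123318576), a subunit of the core complex, stood at 8.30, 12.3 and 13.8 CPM against 36.1, 31.8, 71.4 and 33.3 CPM and fell by 1.82 ± 0.39 (adjusted p = 0.0221). Control replicate 3 stood well above the other controls, and all 4 lay clear of the AML1-ETO values. Fancd2, which the core complex tags with ubiquitin at crosslinks, stood at 3.88, 4.38 and 8.56 CPM against 12.4, 17.9, 27.5 and 30.1 CPM, apart but not called (−1.87 ± 0.54, adjusted p = 0.058). Its partner Fanci stood at 12.8, 3.84 and 5.50 CPM against 11.3, 16.6, 22.6 and 13.0 CPM, with overlap (adjusted p = 0.371). Reads of Fanca and Fanci can also come from opposite-strand genes that share 10.5% and 15.95% of their exon bases, Zfp276 and Polg.

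Base excision repair was lower in Ung alone. Ung (chromosome 5, 114130386 to 114139323), the uracil DNA glycosylase that works at the fork and in antibody genes, stood at 8.54, 7.45 and 9.66 CPM against 20.8, 35.6, 54.9 and 38.7 CPM. The 3 AML1-ETO values were tight and under the lowest control value, and Ung fell by 2.03 ± 0.39 (adjusted p = 0.0145). Parp1, the sensor of single-strand breaks, stood at 192, 210 and 214 CPM against 222, 242, 386 and 336 CPM, apart by a narrow margin and not called (−0.43 ± 0.22, adjusted p = 0.273). Apex1, the endonuclease that cuts at the empty base, stood at 13.98 to 18.9 CPM against 17.4 to 43.1 CPM (−0.96 ± 0.37, adjusted p = 0.137). Of its exon bases, 61.7% are shared with the opposite-strand gene Pip4p1. Xrcc1, the scaffold of this repair, and Ogg1, the glycosylase of oxidised guanine, overlapped between the groups, with log2 fold changes of −0.33 and −0.32 (adjusted p = 0.521 and 0.798).

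End joining had 1 call among its 4 genes. Xrcc5 (chromosome 1, 72307421 to 72394952), which encodes Ku80, stood at 12.4, 7.30 and 14.3 CPM against 24.7, 43.5, 34.3 and 75.0 CPM and fell by 1.87 ± 0.45 (adjusted p = 0.0337). Xrcc6, which encodes its partner Ku70, stood at 73.7, 87.8 and 76.6 CPM against 63.8, 74.5, 46.0 and 76.8 CPM, with overlap and a positive sign (0.38 ± 0.22, adjusted p = 0.35). Whether the 2 genes differ was not tested. Prkdc, the kinase recruited by Ku, stood at 38.8 to 56.5 CPM against 50.8 to 91.9 CPM (adjusted p = 0.356). Lig4, the ligase of this route, stood at 1.55, 3.76 and 4.34 CPM against 4.03, 12.5, 28.7 and 5.71 CPM (−1.88 ± 0.89, adjusted p = 0.233), and control replicates 2 and 3 held the highest values.

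Of the checkpoint kinases only Chek1 was called. Chek1 (chromosome 9, 36708482 to 36727065), which restrains the cycle when forks stall, stood at 2.45, 4.91 and 5.69 CPM against 13.1, 24.7, 32.8 and 31.3 CPM and fell by 2.45 ± 0.54 (adjusted p = 0.0229). Chek2, which acts downstream of Atm at breaks, leaned the other way at 49.9, 50.9 and 58.8 CPM against 21.2, 27.8, 51.7 and 37.3 CPM (0.73 ± 0.31, adjusted p = 0.18). Only control replicate 3 reached the AML1-ETO range, and without that library Chek2 was higher (0.98, adjusted p = 0.0371). Atm stood at 48.2 to 56.6 CPM against 28.2 to 94.1 CPM and Atr at 64.0 to 76.6 CPM against 21.3 to 106 CPM. Control replicate 2 was the low value for both kinases, and neither passed the test (−0.37 and 0.07, adjusted p = 0.641 and 0.958). Without that library Atm was lower (−0.65, adjusted p = 0.0497).

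**Figure D3:**
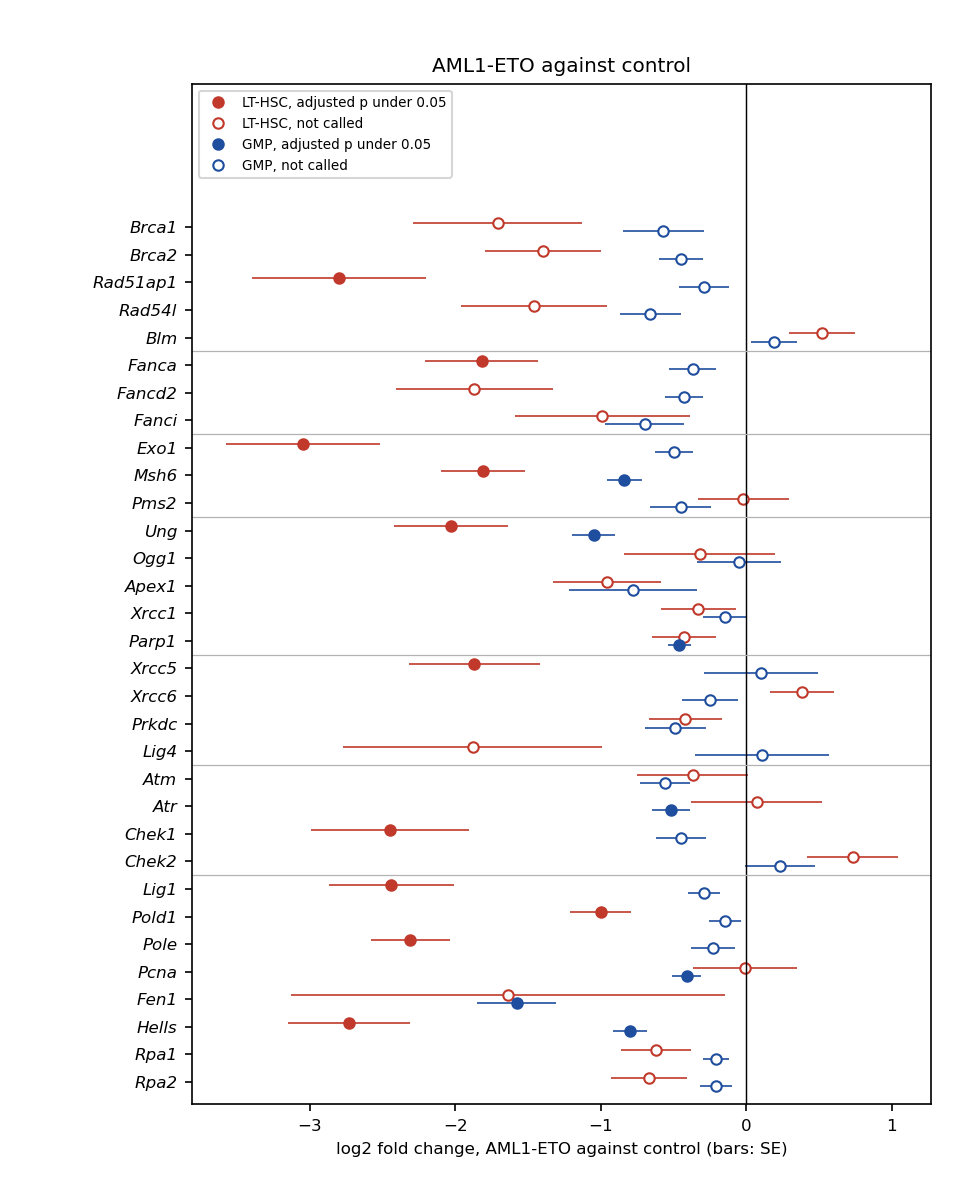
Log2 fold change of AML1-ETO against control for the 32 genes, in LT-HSC (red) and in GMP (blue), with bars of 1 SE and filled points for an adjusted p under 0.05. Most points lie left of 0 in both cell types, and the LT-HSC points of Exo1, Rad51ap1, Hells, Chek1, Lig1 and Pole lie farthest left while their GMP points stay between −0.80 and −0.23.

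Other genes of the same pathways were counted from a list of 156. In LT-HSC, 20 of them were lower and 2 higher, with a median of −0.36. The fork list held 11 of the 20, out of 29 genes with a median of −1.30, among them Dna2, a nuclease of flaps and breaks (−3.40), Mcm10, which activates the replicative helicase (−2.78), and Uhrf1, which guides methylation to new DNA (−2.53). In the checkpoint list 4 of 15 were lower, with Timeless (−2.53) and Tipin (−1.36), which travel with the fork, and Clspn (−2.20), which hands the signal of Atr to Chek1. Of 26 recombination genes 4 were lower, among them Polq (−2.44), Fignl1 (−2.18) and Bard1 (−2.09), the partner of Brca1, and of 13 Fanconi genes 1, Usp1 (−1.23), the enzyme that removes ubiquitin from Fancd2. The higher genes were Xpc (0.97), which finds bulky lesions for nucleotide excision repair, and Polk (1.32), a polymerase that copies past damage. The named genes had adjusted p of 0.00206 to 0.0441. None of the 15 p53 targets passed the test in edgeR (4 lower and 1 higher at an unadjusted p under 0.05, and 3 lower and 0 higher with DESeq2). The same held for 17 base excision genes outside the 32 (1 lower and 1 higher unadjusted, 1 lower with DESeq2), for 8 of end joining (1 higher unadjusted, 1 higher with DESeq2) and for 5 of mismatch repair (0 unadjusted and 0 with DESeq2).

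Genes of cell division moved with the repair genes. Of 12 licensing genes (the Mcm helicase and its loaders) 8 were lower, and of 20 genes of mitosis 14 were lower, with medians of −1.47 and −2.19. Per library, the mitosis genes summed to 270 to 560 CPM in AML1-ETO LT-HSC against 1077 to 2415 CPM in control LT-HSC, and the 32 repair and fork genes to 1297 to 1461 CPM against 1798 to 3111 CPM. Markers of other cells moved as well. The mast cell and basophil markers, of which 9 of 10 could be tested and all 9 were higher, summed to 9371 to 12060 CPM against 446 to 673 CPM, with Fcer1a, Mcpt4 and Prss34 at 0 in control LT-HSC. Of 11 B and plasma cell markers 6 were lower, with sums of 115 to 646 CPM against 13160 to 77320 CPM and Igll1 at 0 in AML1-ETO LT-HSC. Of 9 erythroid markers 5 were lower, with sums of 398 to 477 CPM against 972 to 2704 CPM. Of 8 GMP markers 5 were higher and 1 lower (1209 to 1529 CPM against 69.6 to 414 CPM), of 11 LT-HSC markers 1 was higher and 3 lower, and of 5 T and NK cell markers tested 3 were lower (7.99 to 20.7 CPM against 93.6 to 299 CPM). The part of cell division and of these other cells in the falls of the repair genes was not tested.

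The count of 11 rested on all 3 AML1-ETO libraries: without replicate 1, 2 or 3 of AML1-ETO LT-HSC, 3, 2 and 6 of the 32 genes were lower, and without a control library 9 to 14. Without control replicate 2, 11 genes were lower, but Xrcc5 lost its call (−1.89, adjusted p = 0.056) and Atm gained one. Without control replicate 3 the 11 calls were kept, and Chek2 was higher. Pole and Msh6 were called without any 1 library and in every other setting run.

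In GMP, where AML1-ETO was compared with control to ask what the fusion changes in the committed progenitor, the genes called lower were of base excision and mismatch repair, the fork and the checkpoint. Of the 32 genes 7 were lower and none higher, where 3.96% of the 13981 genes tested were lower, 5.47% higher and 9.43% either. At an unadjusted p under 0.05, 17 were lower and 0 higher, and DESeq2 called 11 lower and 0 higher. Of all 13981 genes, 1590 were lower and 1780 higher at an unadjusted p under 0.05, and DESeq2 called 937 lower and 1371 higher. The AML1-ETO values lay below all control values for 17 of the 32 (16.1% of all genes) and above them for 0 (10.6% of all genes), and the median log2 fold change was −0.44 against −0.03 for all genes. Calls shared by both cell types were not counted over all genes, so those of the 32 are descriptive. Msh6, Ung and Hells were lower in both cell types, 3 of the 11 calls in LT-HSC and 3 of the 7 in GMP.

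Ung had the largest fall among these 3. Its 3 AML1-ETO values were 35.2, 51.2 and 48.9 CPM against 95.1, 100.2, 95.8 and 85.9 CPM in control GMP, a clear gap with tight controls, and fell by 1.05 ± 0.15 (adjusted p = 0.0114). Msh6 stood at 109, 85.6 and 80.4 CPM against 167, 162, 168 and 170 CPM and fell by 0.84 ± 0.12 (adjusted p = 0.0107). Hells stood at 105, 121 and 88.1 CPM against 184, 179, 195 and 179 CPM and fell by 0.80 ± 0.12 (adjusted p = 0.0119). For all 3 genes the controls varied by less than the distance between the groups.

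The 4 genes called in GMP and not in LT-HSC were Fen1, Parp1, Pcna and Atr. Fen1 (chromosome 19, 10199132 to 10204169) stood at 6.71, 4.12 and 6.43 CPM against 17.6, 17.0, 18.1 and 17.0 CPM and fell by 1.58 ± 0.27 (adjusted p = 0.0176), with the shared exons given above. Parp1 (chromosome 1, 180568924 to 180601254) stood at 297, 327 and 309 CPM against 428, 421, 450.3 and 436 CPM and fell by 0.46 ± 0.08 (adjusted p = 0.0184). Pcna (chromosome 2, 132249162 to 132253314) stood at 344, 309 and 315 CPM against 445, 415, 484 and 395 CPM and fell by 0.41 ± 0.10 (adjusted p = 0.0401). Atr (chromosome 9, 95857597 to 95951781) stood at 70.2, 52.4 and 57.2 CPM against 82.8, 88.8, 85.5 and 89.8 CPM and fell by 0.52 ± 0.13 (adjusted p = 0.0428). Fen1 fell 2.99-fold, while the falls of Parp1, Pcna and Atr were 1.38-, 1.33- and 1.43-fold, and all 4 genes kept their groups apart. The effect of the fusion on these 4 genes was not shown to differ between GMP and LT-HSC (adjusted p of 0.659 to 1.0 for the difference).

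By class, no recombination, Fanconi or end joining gene was called in GMP (unadjusted p under 0.05 for 2, 2 and 1 of them, all lower, and DESeq2 called 1, 1 and 0). Brca1 stood at 29.9, 78.3 and 50.1 CPM against 76.4 to 84.4 CPM, with AML1-ETO replicate 2 inside the control range (adjusted p = 0.266). Exo1 narrowly missed at 31.4, 37.0 and 33.5 CPM against 45.7 to 52.5 CPM (−0.50 ± 0.13, adjusted p = 0.0506). Pole, Lig1 and Pold1, called lower in LT-HSC, had log2 fold changes of −0.23, −0.29 and −0.15 here (adjusted p of 0.131 to 0.447), and their groups overlapped for Pole and Pold1. Apex1 ranged from 10.5 CPM in AML1-ETO replicate 1 to 49.1 CPM in replicate 2. Xrcc5 was low in both groups, at 6.02 to 12.4 and 5.33 to 9.66 CPM.

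Of the other pathway genes, 11 of 154 tested were lower in GMP and 2 higher, with a median of −0.22. The fork list again held most of them, 7 of 29 lower, among them the polymerase subunit genes Pola1 (−0.72) and Pold2 (−0.67) and Rpa3 (−0.72), the smallest subunit of the single-strand binding complex. Fignl1 (−0.79), Hus1 (−0.94), part of the checkpoint clamp, and Timeless (−0.44) were lower as well, the named genes having adjusted p of 0.013 to 0.0492. The 2 higher genes were p53 targets that promote cell death, Bbc3 (1.85) and Pmaip1 (1.51), and 12 of the 14 p53 targets tested were not called.

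**Figure D4:**
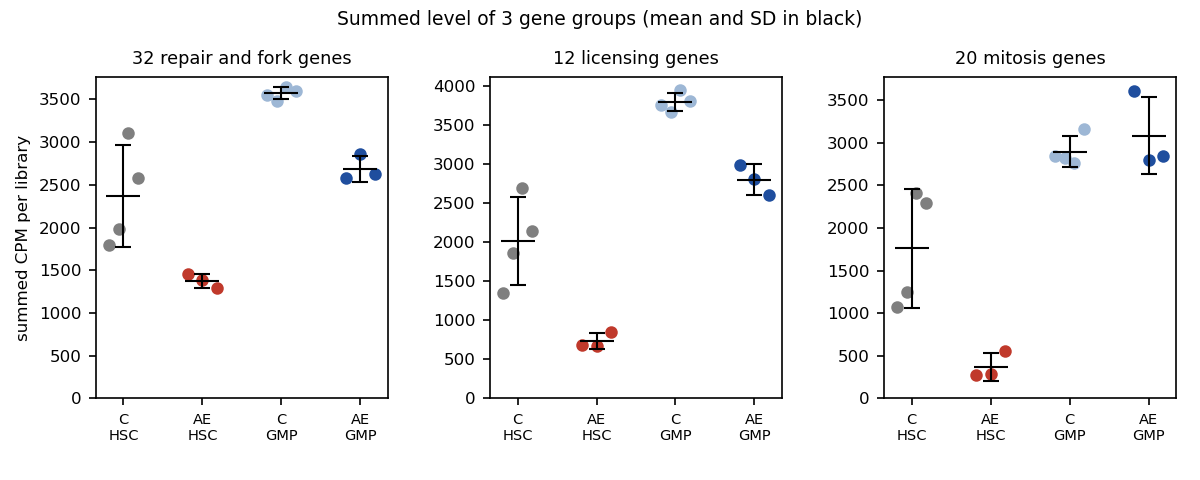
Summed CPM per library of the 32 repair and fork genes, of 12 licensing genes and of 20 mitosis genes in the 4 groups, with points for libraries and bars for mean and SD. The repair and licensing sums of AML1-ETO GMP lie below those of control GMP (2579 to 2856 against 3485 to 3648 CPM for the 32 genes), while the mitosis sums overlap.

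The mitosis genes gave another picture in GMP, while the licensing genes leaned lower, as the repair genes did. Of the 20 mitosis genes 0 were lower and 1 higher in AML1-ETO GMP (1 lower and 6 higher at an unadjusted p under 0.05, and 0 and 4 with DESeq2), with a median of 0.17, and their sum was 2801 to 3603 CPM against 2756 to 3159 CPM. Of the 12 licensing genes 4 were lower, with a median of −0.38 and sums of 2608 to 2999 CPM against 3672 to 3958 CPM. Markers of several other cells were higher in AML1-ETO GMP. The neutrophil markers, 4 of 8 tested being higher, summed to 606 to 3491 CPM against 63.4 to 84.6 CPM, the mast cell and basophil markers, 7 of 9 tested being higher, to 2599 to 3876 CPM against 561 to 739 CPM, and the erythroid markers, 2 of 9 higher, to 45.7 to 2655 CPM against 20.4 to 39.8 CPM. Mcpt4 and Tpsb2 were at 0 in control GMP. Of the LT-HSC markers 3 of 10 tested were higher (65.1 to 333 CPM against 42.3 to 54.2 CPM), and of the monocyte and macrophage markers 2 of 7 (610 to 1350 CPM against 476 to 589 CPM). The sums overlapped for the B and plasma cell markers (43.3 to 440 CPM against 159 to 191 CPM, 1 of 4 tested lower) and for the T and NK cell markers (1.05 to 42.4 CPM against 2.25 to 3.93 CPM, 0 of 2 tested called, 1 higher at an unadjusted p under 0.05 and 1 with DESeq2). Their part in the falls was not tested.

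These 7 calls depended on single libraries. Without control GMP replicate 1, 2, 3 or 4, 0, 2, 0 and 1 of the 32 genes were lower, and without AML1-ETO GMP replicate 1, 2 or 3, 10, 16 and 7 were. The fold changes moved little when a control library was left out: among the lost calls, Msh6 stayed at −0.84 to −0.83 (adjusted p of 0.0528 to 0.0548) and Hells at −0.81 to −0.77 (0.0543 to 0.0593). A fit of all 14 samples, which shares 1 estimate of the spread with the wider LT-HSC groups, called 0 lower, where DESeq2 on the GMP samples alone called 11.

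The effect of the fusion was then compared between the cell types, as the log2 fold change in GMP minus that in LT-HSC. It differed for 8 of the 32 genes, all with a less negative log2 fold change in GMP, where 3.43% of the 16116 genes tested had a higher and 2.91% a lower effect in GMP, 6.34% in all. None had a lower effect (0 at an unadjusted p under 0.05 and 0 with DESeq2), and DESeq2 called 11 in place of 8. Of all 16116 genes, 1606 had a lower and 1706 a higher effect at an unadjusted p under 0.05. DESeq2 called 691 lower and 1090 higher. The differences were 2.63 ± 0.40 for Exo1 (adjusted p = 0.00259), 2.59 ± 0.53 for Rad51ap1 (adjusted p = 0.0115), 2.23 ± 0.45 for Lig1 (adjusted p = 0.011), 2.16 ± 0.30 for Pole (adjusted p = 0.00139), 2.08 ± 0.47 for Chek1 (adjusted p = 0.0189) and 2.01 ± 0.42 for Hells (adjusted p = 0.0128). Fanca (1.53 ± 0.40, adjusted p = 0.0366) and Pold1 (0.93 ± 0.24, adjusted p = 0.0336) had smaller ones. For Hells, the only 1 of these 8 called in both cell types, the fall was 6.64-fold in LT-HSC and 1.74-fold in GMP. Msh6 and Ung, lower in both cell types, had differences of 1.04 (adjusted p = 0.0629) and 1.07 (adjusted p = 0.114) that did not pass. Parp1 had nearly the same change in both, −0.43 and −0.46, with a difference of 0.05 ± 0.24. Of the 20 mitosis genes 16 had a higher effect in GMP, with a median difference of 2.44, against 0.71 over the 32 genes. Of the 156 other pathway genes 14 had a higher effect in GMP, 7 of them of the fork, such as Dna2 (2.90) and Mcm10 (2.52), and 3 a lower one, Xpc (−0.94), Polk (−1.36) and Ube2a (−1.41), a ubiquitin-conjugating enzyme of damage tolerance. Without control LT-HSC replicate 1, 13 of the 32 genes differed in place of 8. This fit shares 1 estimate of the spread over the 14 samples, although the LT-HSC groups were wider. For Exo1, Rad51ap1 and Chek1 the SE of the difference (0.40, 0.53 and 0.47) was below that of the LT-HSC fit alone (0.53, 0.60 and 0.54). For the other genes that differed it was not. The p-values of the difference may therefore be too small.

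In control mice, GMP were compared with LT-HSC to see how the genes differ between the normal cell types. Of the 32 genes, 15 were higher and 1 lower in GMP, where 13.9% of the 16116 genes tested were higher, 10.6% lower and 24.5% either. All GMP values lay above all LT-HSC values for 20 of the 32 (20.8% of all genes) and below them for 2 (11.4% of all genes). The median log2 fold change was 0.66 against 0.02 for all genes, a gap of 0.63. The gap was 0.62 to 0.63 with the other scalings and DESeq2, which is no check, as scaling shifts all genes nearly alike. The other scalings and DESeq2 shifted the median of all genes by −0.11 to −0.15. The share of higher genes among all called genes was 56.9%. It was 47.4% with upper-quartile factors, 44.9% with DESeq2-type size factors and 40.6% with DESeq2. Fancd2 rose most, by 1.53 ± 0.30 (adjusted p = 0.00241), from 12.4 to 30.1 CPM in LT-HSC to 58.2 to 68.0 CPM in GMP. Brca1 rose by 1.43 ± 0.41 (adjusted p = 0.0217), Ung by 1.33 ± 0.25 (adjusted p = 0.00159), Hells by 1.32 ± 0.27 (adjusted p = 0.00331) and Chek1 by 1.22 ± 0.31 (adjusted p = 0.0109). Each of these had GMP values within a narrow band above the whole LT-HSC range. The fit for this comparison also shares 1 estimate of the spread over the 14 samples, although the LT-HSC groups were wider. Its p-values may therefore be too small as well.

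**Figure D5:**
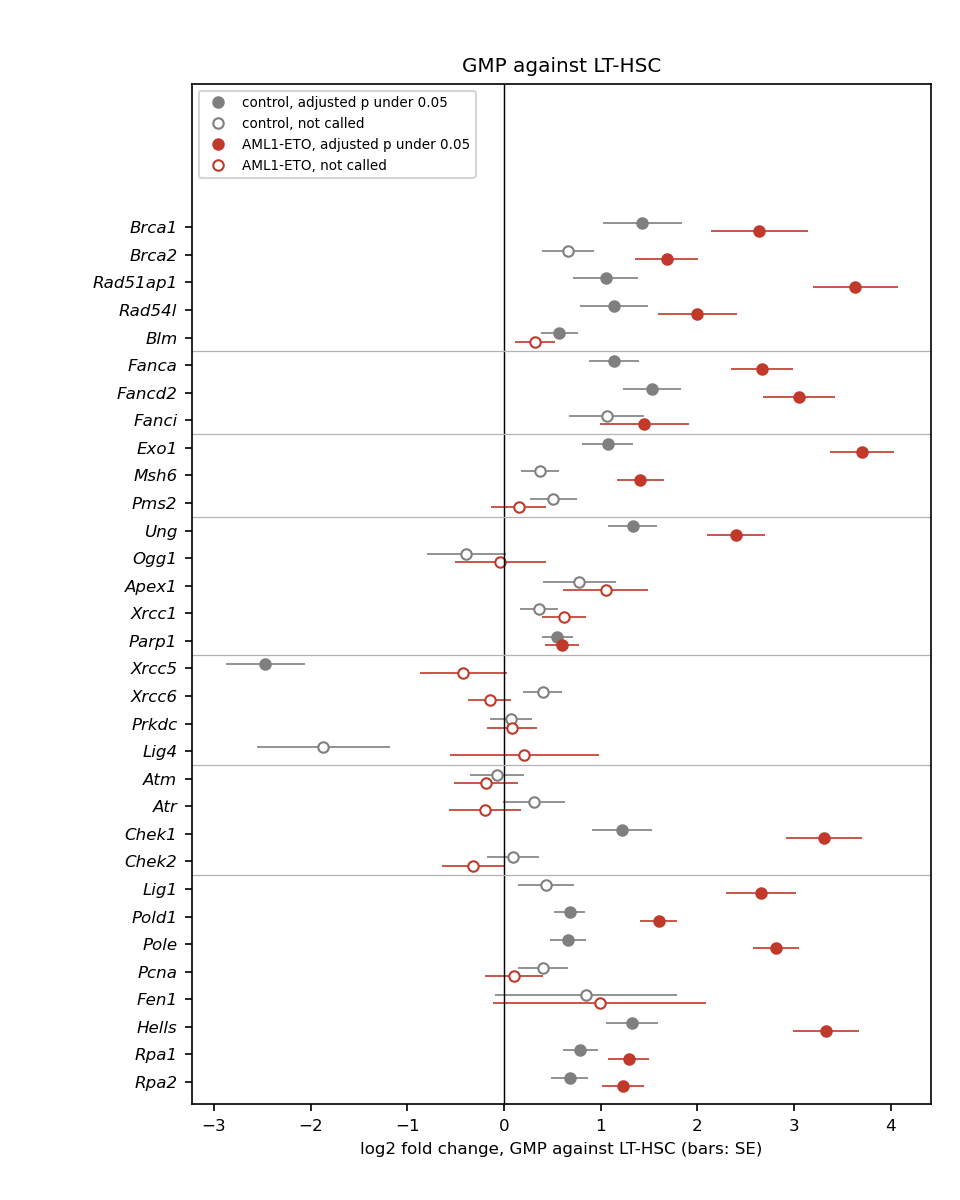
Log2 fold change of GMP against LT-HSC for the 32 genes in control mice (grey) and in AML1-ETO mice (red), with bars of 1 SE and filled points for an adjusted p under 0.05. Most filled points lie right of 0 and the red ones farther than the grey ones, while Xrcc5 in control mice is the filled point on the left.

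Markers of other cells moved with this comparison. Of the B and plasma cell markers 10 of 11 were lower in control GMP (159 to 191 CPM against 13160 to 77320 CPM, with Igkc and Pax5 among those at 0 in control GMP), of the erythroid markers 9 of 9 (20.4 to 39.8 CPM against 972 to 2704 CPM) and of the T and NK cell markers 5 of 6 tested (2.25 to 3.93 CPM against 93.6 to 299 CPM). Of the mast cell and basophil markers 5 were higher and 1 lower, and of the monocyte and macrophage markers 4 of 7 were higher (476 to 589 CPM against 144 to 258 CPM). Their part in the result was not tested.

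Xrcc5 was the gene called lower. It stood at 9.05, 8.02, 5.33 and 9.66 CPM in control GMP against 24.7, 43.5, 34.3 and 75.0 CPM in control LT-HSC and fell by 2.47 ± 0.41 (adjusted p = 0.000737). Its level in AML1-ETO LT-HSC, 7.30 to 14.3 CPM, was near that of GMP. Lig4 showed a similar order, at 3.08 to 4.01 CPM in control GMP against 4.03 to 28.7 CPM in control LT-HSC, without passing the test (−1.87 ± 0.69, adjusted p = 0.0615). Lig4 was called lower by DESeq2 (adjusted p = 0.00602), in edgeR with DESeq2-type size factors (0.0471) and after removal of control LT-HSC replicate 1 (0.0303) or 4 (0.0411), so that 2 genes in place of 1 were lower in those settings. The other genes not called in this comparison include Atm, Atr, Chek2, Prkdc and Pcna, with log2 fold changes of −0.07 to 0.40. Of the 156 other pathway genes 43 were higher and 4 lower in control GMP, among them Cdc45 (1.61), part of the replicative helicase, and, on the lower side, Dntt (−3.91), the end joining polymerase of lymphoid cells. The count of 15 fell to 9 without control GMP replicate 1 and to 9 without control GMP replicate 4.

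In AML1-ETO mice, 18 of the 32 genes were higher and none lower in GMP than in LT-HSC (0 lower at an unadjusted p under 0.05 and 0 with DESeq2), where 12.6% of all genes tested were higher and 9.15% lower. Of all 16116 genes, 2552 were lower at an unadjusted p under 0.05 and 2187 with DESeq2. The values of GMP lay above those of LT-HSC for 18 of the 32 (21.1% of all genes) and below for 0 (20.7% of all genes), and the median was 1.26. Exo1 rose by 3.70 ± 0.33 (adjusted p = 1.01e-05), Rad51ap1 by 3.63 ± 0.44 (adjusted p = 6.77e-05), Hells by 3.33 ± 0.34 (adjusted p = 2.34e-05), Chek1 by 3.31 ± 0.39 (adjusted p = 5.73e-05) and Pole by 2.81 ± 0.24 (adjusted p = 7.4e-06). These p-values come from the same fit with 1 shared spread and may be too small. In the other settings run, the adjusted p reached 0.00192 for Exo1 and 0.00453 for Rad51ap1. Of the genes called higher in control mice, 14 of 15 were also among the 18 called here, the exception being Blm. Shared calls were not counted over all genes, so this count is descriptive. The test of whether the step differs between genotypes is the test of the difference given above, which uses the same samples. Of the 156 other pathway genes 52 were higher and 7 lower, and the fork list held 26 of the 52, with Cdc45 rising by 4.08. Of the neutrophil markers 8 of 9 were higher (606 to 3491 CPM against 2.76 to 46.2 CPM), of the erythroid markers 3 of 9 and of the monocyte and macrophage markers 5 of 7, while 4 of 10 mast cell and basophil markers were lower and 2 higher, and their part was not tested. The mitosis and licensing genes were all higher in AML1-ETO GMP than in AML1-ETO LT-HSC, 20 of 20 and 12 of 12, against 7 of 20 and 9 of 12 in control mice.

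Levels of different genes were compared per kilobase of exon. Pcna was the most abundant of the 32 in all 4 groups, with mean CPM per kilobase of 137 in control LT-HSC, 126 in AML1-ETO LT-HSC, 181 in control GMP and 135 in AML1-ETO GMP. Parp1 came next in each group, at 56.0, 38.8, 82.0 and 58.8 CPM per kilobase. Lig1 followed in control LT-HSC (46.2 CPM per kilobase) and in control GMP (62.4), close to Pold1 (38.7 and 61.9). In AML1-ETO LT-HSC, Xrcc6 and Chek2 (both 17.7) stood beside Pold1 (18.1) in place of Lig1. Lig4 and Exo1 were the least abundant there, at 0.619 and 0.310 CPM per kilobase.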

How the data were processed

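RNA-seq of 14 bulk samples was deposited as 1 table of whole-number counts per gene, which the authors made with HISAT2 2.0.5 and featureCounts 1.5.0-p3 on mm10, per the submitters' processing notes, which give no order or settings. Neither the gene annotation nor whether reads were counted by strand is given in the sources used here. RNA was extracted with the RNeasy Plus Micro kit, and libraries were made with SMART-Seq v4 and SMARTer Stranded kits, per the labels' protocols.

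From the counts as deposited, edgeR 4.0.16 (R 4.3.3) tested each comparison with TMM scaling, filterByExpr and the quasi-likelihood F test, adjusted by Benjamini-Hochberg over all genes tested, at an adjusted p under 0.05. AML1-ETO against control was fitted within each cell type, and the comparisons between cell types on all 14 samples. CPM, on which the overlap of groups was judged, used TMM library sizes over all 14 samples. The fits within a cell type were scaled over the samples of that cell type alone. SE is the log2 fold change divided by the root of F. The table holds 105 lines that repeat a symbol and 27 with date-like symbols; no gene described here is among them. Gene positions, exon lengths and exon overlaps are from GENCODE M21 (mm10), promoters from RefSeq (GRCm38.p6). The scripts were tested on simulated data.

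The 32 genes and the gene lists were chosen with earlier results of these data known. Names among the other pathway genes come from the at most 3 called genes a class with the largest log2 fold change and a mean of at least 20 counts. DESeq2 1.42.0, other scalings, no filter, leaving out immunoglobulin genes, other sets of samples, a replicate block and leaving out each library were tried. The block tied libraries of the same number, also across genotypes. A block by genotype and number was not run. The labels do not say that replicate numbers pair the samples, and the main fits used no pairing. Deviations of same-numbered libraries correlated at −0.0765 to −0.0484 between the LT-HSC groups and 0.0141 to 0.0359 between the GMP groups. Between the cell types they correlated at −0.0388 to 0.0182 in control mice. In AML1-ETO mice they correlated at 0.091 to 0.161, where differently numbered libraries gave −0.092 to −0.0213. Deviations from a group mean cancel out within the group, so these values are not independent of each other. Totals were 13210952 to 19403864 counts, and for the closest replicates counting error can match the spread between them (Fanci in control GMP, CV 2.09% over 2318 counts in 4 libraries). Some items are not reported here.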

Additional observations from a re-analysis of the deposited data

Results flagged for a closer look

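Among 64 groups of 4 libraries (the 32 genes in both control groups), 4 held a library whose distance from the nearest other was large against the range of its group. Chance gives about 1 in 20 such groups. Fanca had its highest value, 71.4 CPM, in control LT-HSC replicate 3. In control GMP, Brca2 (67.6 CPM) and Pole (108.2 CPM) had their lowest values in replicate 3, and Xrcc6 (78.8 CPM) had its lowest value in replicate 2.

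The effect of the fusion differed between the cell types for 8 genes in the interaction term of edgeR's quasi-likelihood fit over the 14 samples, each with the less negative change in GMP. On the log2 scale, GMP minus LT-HSC, the differences were 2.63 for Exo1, 2.59 for Rad51ap1, 2.23 for Lig1, 2.16 for Pole, 2.08 for Chek1, 2.01 for Hells, 1.53 for Fanca and 0.93 for Pold1.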

How the results depend on the processing

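No called value of the 32 genes changed sign in any setting run. In LT-HSC, 11 genes were lower, against 4 with the replicate block, 18 in a fit of all samples and 2 to 14 when each library was left out in turn. The 0 higher genes became 0 to 1. In GMP, 7 genes were lower, against 11 with DESeq2, 0 with the replicate block, 0 in the fit of all samples and 0 to 16 with a library left out. Between cell types in control mice, the 1 lower gene became 2 with DESeq2-type size factors, 2 with DESeq2 and 1 to 2 with a library left out, and the 15 higher genes became 9 to 17. In AML1-ETO mice, the 18 higher genes became 16 to 18, and 17 with the block. The effect differed for 8 genes, against 6 to 13 with a library left out and 6 with the block.

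Over all genes in LT-HSC, 684 were lower (DESeq2 1483, block 213, all samples 1497, library left out 111 to 1003) and 1107 higher (block 312, all samples 1669, library left out 223 to 1373). In GMP, 554 were lower (DESeq2 937, no filter 260, block 5, all samples 64, library left out 12 to 1964) and 765 higher (DESeq2 1371, block 107, all samples 394, library left out 116 to 1550). Between cell types, 1702 were lower in control mice (DESeq2 2676, library left out 1103 to 2092), and in AML1-ETO mice 1474 were lower and 2031 higher (library left out 798 to 1397 and 1294 to 1901). The effect was lower in GMP for 469 genes (block 231, library left out 236 to 742) and higher for 552 (DESeq2 1090, block 337, library left out 235 to 735). The cause of these changes was not tested. The labels do not say whether the numbers pair the samples. Each AML1-ETO library correlated best with its own number in the other cell type (0.091, 0.161 and 0.109), a hint from the data and not from the design. The hint is weak, as deviations from a group mean cancel out and the values are not independent.

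Fen1 had no count in control LT-HSC replicate 2, a library of 15049927 counts, and Lig4 lay below 5 CPM in 3 of the 4 groups. The cause of the missing Fen1 count was not tested.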
